A study of Rattus norvegicus with 23 samples.

Results

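The 54 genes described here were lower in control aggregates of embryonic rat brain cells after 6 hours than at the start of the experiment. They were chosen by their own levels in 6 libraries, the 3 controls taken at 0 hours (T0) and the 3 controls taken at 6 hours (T6). Levels are CPM, the reads of a gene scaled to the sum of reads assigned to genes in the same library. A gene was taken when its mean over these 6 libraries was at least 2 CPM, its highest T6 control lay below its lowest T0 library, and its mean at T0 was at least 1.5 times its mean at T6. Among 32494 genes listed, with or without reads, 11961 reached the CPM minimum, and 54 of these, or 0.451%, met every condition. ENSRNOG00000008015 and ENSRNOG00000019422, given as Fos and Egr1 in the definition of the group, met them too and were set aside. Since T0 and T6 control levels chose the genes, the difference between them is a description here and carries no test.

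All libraries came from 3D aggregates of Sprague Dawley rat brain cells of embryonic day 15, kept for 14 days under agitation with new medium every 3 days. The control groups received PBS (phosphate-buffered saline) and had 3 libraries each at T0, T6, 12 hours (T12) and 24 hours (T24). The sepiapterin groups received 120 ng/ml sepiapterin and had 3 libraries each at T6, T12 and T24. For 2 T12 controls, numbered 10 and 11, a repeat library was made, and T24 and the repeats belong to the second of 2 library batches by label. The labels used here name no batch for T0, so time and batch cannot be told apart in any comparison with T0. Sepiapterin enters the salvage pathway of tetrahydrobiopterin, which hydroxylases of tyrosine, tryptophan and phenylalanine need to work, as do nitric oxide synthases.

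Aggregates of embryonic brain cells rebuild a tissue in which neurons and glia mature together. The level of a messenger RNA follows its synthesis and its decay, and lifetimes differ widely between genes. Immediate-early genes such as Fos and Egr1 encode transcription factors whose messengers appear and decay quickly after a stimulus. The files give genes by Ensembl identifier only, and 0 identifiers matched a symbol in the reference table used here. What the 54 genes encode is therefore not stated, no promoter is shown, and neither pathway lists nor the cell type markers of brain tissue could be applied. Fewer cells of a type and less RNA per cell cannot be told apart in these bulk samples.

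Most of the 54 genes were of low abundance. Their mean T0 levels ran from 2.49 to 283 CPM with a median of 5.98 CPM, and 44 to 6753 reads stood behind a gene in a T0 library and 25 to 4711 in a T6 control. The spread between replicates was wide: the median coefficient of variation of the 54 genes was 16.9% at T0 and 11.1% in T6 controls, against 6.9% and 3.91% over all genes at the CPM minimum. Libraries held 16991417 to 26588314 reads in genes.

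The ratio of the T0 mean to the T6 control mean ran from 1.51 to 2.88 with a median of 1.61, and 4 of the 54 genes reached 2. ENSRNOG00000015382 had the largest ratio, with 12.8, 10.9 and 10.3 CPM at T0 and 4.18, 3.87 and 3.79 CPM in T6 controls. It stayed at 3.40 to 4.43 CPM in T12 controls and stood at 5.14 to 5.99 CPM in T24 controls, so that every later control library lay below the T0 range. ENSRNOG00000060492 had the second largest ratio, with 3.11, 3.14 and 2.43 CPM at T0 and 1.51, 1.20 and 1.15 CPM in T6 controls. Its T24 controls were uneven, at 1.52, 2.53 and 1.87 CPM, and the highest of them lay inside the T0 range. At the edge of the definition, the last gene inside, ENSRNOG00000007541, had means of 3.81 and 2.53 CPM at T0 and T6, and the first outside, ENSRNOG00000016496, had 2.78 and 1.85 CPM.

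A single T0 library weighed on which genes qualified. T0 control replicate 1 was the highest of the 3 T0 libraries for 30 of the 54 genes, or 55.6%, and for 43.2% of all genes at the CPM minimum. Without it the same conditions took 51 genes, of which 29 were among the 54. The 29 genes had a median of 1.69 for the mean of T0 replicates 2 and 3 over the T6 control mean. The other 25 had a median of 1.41 there, and their level in T0 replicate 1 was 1.46 times (median) the mean of replicates 2 and 3. The split was made by the same libraries, so these medians largely follow from it and are a description. ENSRNOG00000002434 is of the second kind, with 24.5 CPM in T0 replicate 1 but 11.5 and 12.3 CPM in replicates 2 and 3, against 9.28 to 10.4 CPM in T6 controls. ENSRNOG00000005513, the most abundant of the 54, is of the first kind: it stood at 273, 279 and 298 CPM at T0 and at 170, 177 and 184 CPM in T6 controls. The definition itself required that these groups do not overlap.

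**Figure D1:**
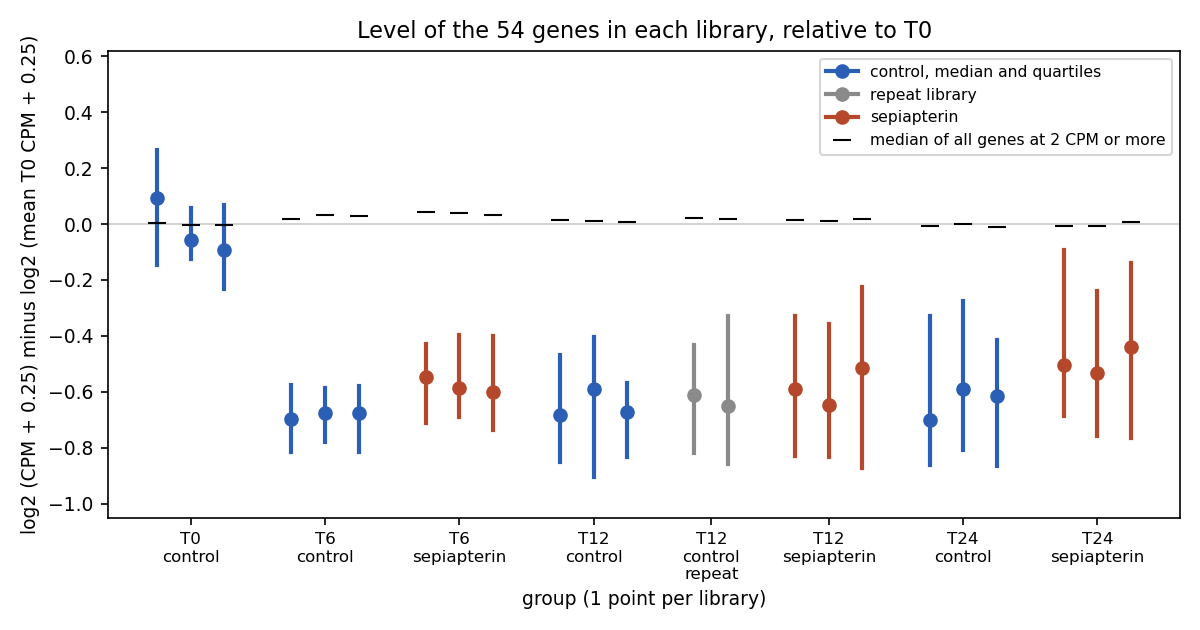
Level of the 54 genes in each of the 23 libraries as log2 (CPM + 0.25) minus log2 (mean T0 CPM + 0.25), with the median over genes (point), the quartiles (bar) and the median of all genes at the CPM minimum (dash). Later libraries have medians between -0.70 and -0.44, and the T24 sepiapterin libraries lie above the T24 controls.

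The genes as a group stayed low through 24 hours in controls. Per library, the median over the 54 genes of the log2 level relative to the T0 mean (with 0.25 CPM added) was -0.70 to -0.68 in T6 controls, -0.68 to -0.59 in T12 controls and -0.70 to -0.59 in T24 controls. Over all genes at the CPM minimum these medians stayed between -0.01 and 0.04 in every later library. At T12 the control libraries of 40 of the 54 genes all lay below the lowest T0 library, as did those of 15.3% of all genes. At T24 the number was again 40 of 54, with 20.0% of all genes as background, and 34 genes, against 11.3% of all genes, were wholly below T0 at both times. In the median gene 1.38% of the difference between T0 and T6 had been regained at T12 and 6.03% at T24. These counts share the T0 and T6 controls that chose the genes and are no independent support for a lasting change.

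Single genes went different ways. At T24 in controls 23 of the 54 genes had a mean below that of T6, 10 had regained 50% or more of the difference, and 4 had a mean at or above that of T0. ENSRNOG00000026136 is a gene that had regained it: from 10.4, 5.89 and 5.29 CPM at T0 it stood at 3.96, 4.51 and 3.60 CPM at T6, and then at 8.31, 8.11 and 5.89 CPM in T12 controls and 8.73, 7.21 and 5.93 CPM in T24 controls. This gene is among the 25 that did not qualify without T0 control replicate 1. Its T24 controls lay inside the T0 range and above T0 replicates 2 and 3. Over the 15 later libraries that did not choose the genes, repeats left out, the levels of 2 of the genes had a median Pearson correlation of 0.060, against 0.023 over all pairs of genes at the CPM minimum. Deviations from the group means gave 0.020 and 0.0020. Pairs of the 54 genes with a correlation above 0.5 made up 10.6%, against 10.9% of all pairs. All these points share the libraries and their depth.

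**Figure D2:**
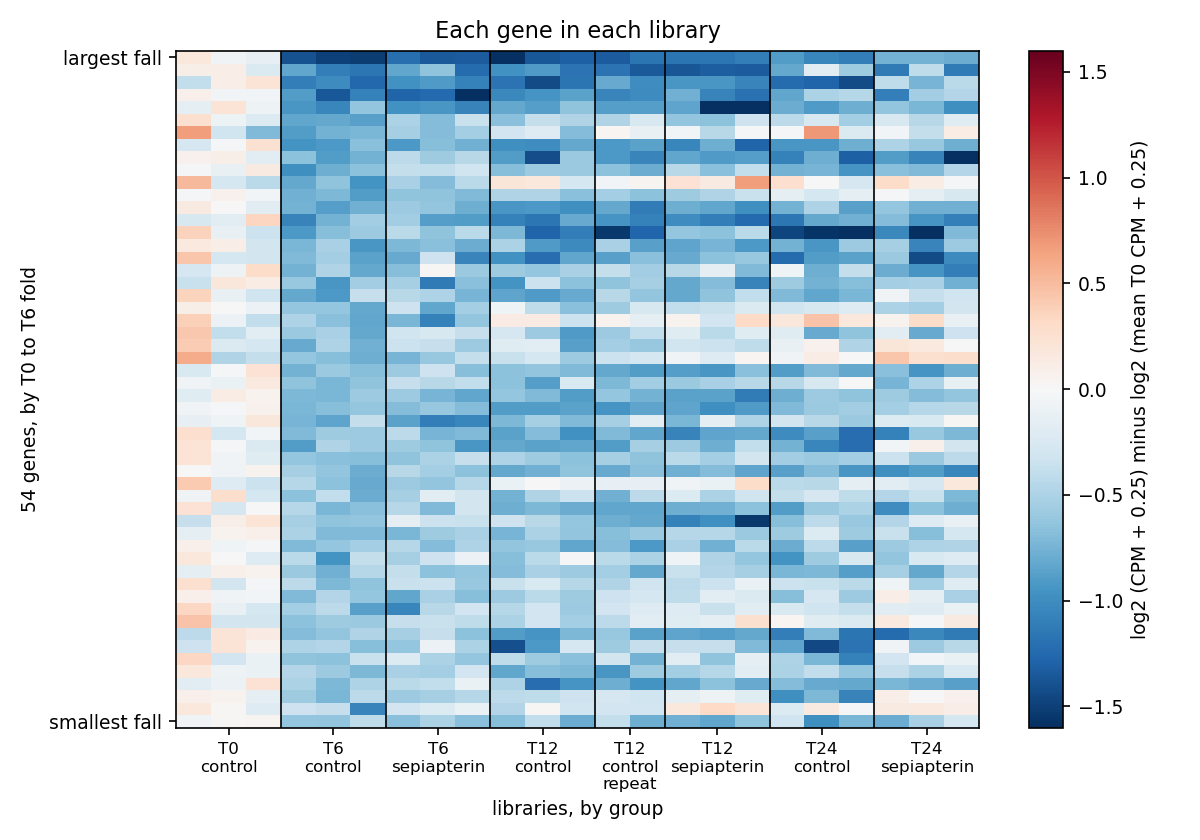
Each of the 54 genes (rows, by the ratio of T0 to T6) in each library (columns, by group), as log2 (CPM + 0.25) minus log2 (mean T0 CPM + 0.25), with blue for lower and red for higher than the T0 mean. Of the rows, 24 have every library of the 5 groups other than T0, T6 controls and repeats below the lowest T0 library (3.49% of all genes), while 4 are wholly below it in none of them (65.1% of all genes). The T0 libraries chose the rows, so these counts are a description.

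T6 sepiapterin libraries were taken at the same time as the controls that defined the group. All 3 lay below the lowest T0 library for 42 of the 54 genes, against 11.6% of all genes, and the per-library medians were -0.60, -0.59 and -0.55. Relative to T6 controls the 54 genes had a median log2 fold change of 0.12. Both comparisons are descriptions with no test, since the genes were picked for high T0 libraries and low T6 controls, which sets the direction against unselected genes.

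From T6 to T12 with sepiapterin, 7 of the 54 genes changed, 5 higher and 2 lower at T12 (edgeR, adjusted p under 0.05). The libraries compared had no part in choosing the genes, but the fit also held the T0 and T6 controls. The background was 4.37% of the 14035 genes tested. The median log2 fold change was 0.0084, against -0.0067 over all genes, so the genes did not move together. ENSRNOG00000020901 rose from 2.04, 1.55 and 2.22 CPM at T6 to 3.70, 2.84 and 4.52 CPM at T12, with no overlap (log2 fold change 0.96 ± 0.21 SE, adjusted p 0.013, 0.0019 to 0.12 over the alternatives). ENSRNOG00000026136 rose from 4.94, 4.37 and 5.29 to 8.49, 7.96 and 11.6 CPM (log2 fold change 0.97 ± 0.21, adjusted p 0.015, 0.00027 to 0.11). In both genes each T12 sepiapterin library was above each T6 sepiapterin library. Controls of ENSRNOG00000020901 stood at 2.45, 2.14 and 1.89 CPM at T6 and at 3.93, 3.93 and 2.74 CPM at T12. Those of ENSRNOG00000026136 stood at 3.96, 4.51 and 3.60 CPM and at 8.31, 8.11 and 5.89 CPM. Sepiapterin against control at T12 gave log2 fold changes of 0.06 and 0.33 for the 2 genes (edgeR, adjusted p 0.91 and 0.45).

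ENSRNOG00000002266 fell between these times, from 3.42, 2.98 and 2.94 CPM to 1.68, 1.83 and 1.16 CPM (log2 fold change -0.97 ± 0.19, adjusted p 0.0050, 0.00049 to 0.055). Without T12 sepiapterin replicate 3 it was not called. Its controls stood at 2.58, 2.37 and 2.40 CPM at T6 and at 3.01, 2.75 and 2.42 CPM at T12. ENSRNOG00000005513 fell by 0.21 ± 0.05 on the log2 scale, from 175, 185 and 175 to 158, 144 and 151 CPM, with an adjusted p of 0.017 (0.0032 to 0.10). The other 3 genes that rose had log2 fold changes of 0.42 to 0.67. The count of 7 moved with single libraries, as did the share of all genes called. It was 1 without T6 sepiapterin replicate 1 or replicate 2 (0.70% and 1.03% of all genes), 4 without T12 sepiapterin replicate 2 (3.42%) and 0 without T12 sepiapterin replicate 3 (0.693%). With T0 control replicate 1 left out of the fit it was 11 (9.84%).

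From T12 to T24 in controls, compared between the 2 libraries titled as repeats and the 3 T24 controls, 4 of the 54 genes changed, 3 higher and 1 lower at T24, with a background of 5.54% of 13653 genes. The median log2 fold change of the 54 was 0.048 and that of all genes -0.0048. ENSRNOG00000005513 stood at 148 and 157 CPM in the repeats and at 174, 188 and 193 CPM at T24, a rise of 0.31 ± 0.06 on the log2 scale (adjusted p 0.0077, 0.000083 to 0.23 over the alternatives). Its fall from T6 to T12 was tested with sepiapterin and this rise in controls. In controls it also went from 170, 177 and 184 CPM at T6 to 152, 153 and 156 CPM at T12. That step was not tested, since T6 controls chose the genes. Every later library of either treatment was below the T0 range. ENSRNOG00000002434 rose from 12.7 and 13.2 CPM to 15.5, 17.6 and 16.1 CPM (log2 fold change 0.37 ± 0.10, adjusted p 0.033, 0.014 to 0.32), and ENSRNOG00000056836, named here because so few genes changed, from 8.21 and 7.56 to 10.8, 9.85 and 10.8 CPM (0.44 ± 0.11, adjusted p 0.033, 0.015 to 0.25).

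ENSRNOG00000004100 fell over the same interval, from 5.24 and 5.04 CPM to 3.10, 3.74 and 2.88 CPM (log2 fold change -0.64 ± 0.15, adjusted p 0.023, 0.0080 to 0.26). Its T6 controls stood at 4.18, 3.72 and 4.66 CPM, and the T24 and T6 control ranges overlapped by the highest T24 library only. The count of 4 became 1 with the libraries of samples 10 and 11 assigned by file header, whose names are the reverse of the titles, and the share of all genes became 0.58%. The count was 0 without repeat library 1 or 2 (0.159% and 0.324% of all genes), 2 without T24 control replicate 2 or replicate 3 (1.55% and 1.57%), and 7 without T24 control replicate 1 (8.88%).

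At 24 hours, 3 of the 54 genes differed between sepiapterin and control aggregates, and all 3 were higher with sepiapterin. The background was 4.17% of 14035 genes in either direction and 2.07% for higher genes. ENSRNOG00000004100 stood at 6.87, 6.36 and 6.66 CPM with sepiapterin and at 3.10, 3.74 and 2.88 CPM in controls (log2 fold change 1.03 ± 0.12 SE, adjusted p 0.00021, 4.5e-07 to 0.0057 over the alternatives). Every sepiapterin library was above every control, and inside or just above the T0 range of 5.69 to 6.72 CPM. The T24 controls of this gene are also those of its call against the repeats. ENSRNOG00000001720 stood at 8.06, 8.83 and 6.76 CPM with sepiapterin and at 4.84, 3.91 and 3.45 CPM in controls, again without overlap (log2 fold change 0.94 ± 0.16, adjusted p 0.0048, 4.0e-05 to 0.049). Its T0 libraries had 9.74, 8.16 and 7.06 CPM.

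ENSRNOG00000007607, also named because so few genes changed, stood at 10.1, 7.95 and 9.91 CPM with sepiapterin and at 5.63, 5.39 and 4.86 CPM in controls (log2 fold change 0.81 ± 0.15, adjusted p 0.0062, 0.00020 to 0.070). Its T0 libraries had 10.2, 14.6 and 15.7 CPM, each above every T24 sepiapterin library. These genes had log2 fold changes of 0.25 to 0.29 at T12, with adjusted p-values of 0.27 to 0.42. The count of 3 was 2 without T24 sepiapterin replicate 1, where ENSRNOG00000007607 lost its call and 0.0776% of all genes were called. It was 7 with T0 control replicate 1 left out of the fit, where the share of all genes was 8.71%. Among the set-aside pair, ENSRNOG00000008015 was at 7.49, 5.77 and 5.78 CPM with sepiapterin and 3.79, 3.14 and 3.84 CPM in controls at T24 (log2 fold change 0.82 ± 0.22, adjusted p 0.039, 0.0037 to 0.25 over the alternatives), while ENSRNOG00000019422 was at 9.09 to 11.3 and 8.99 to 9.33 CPM (adjusted p 0.41).

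**Figure D3:**
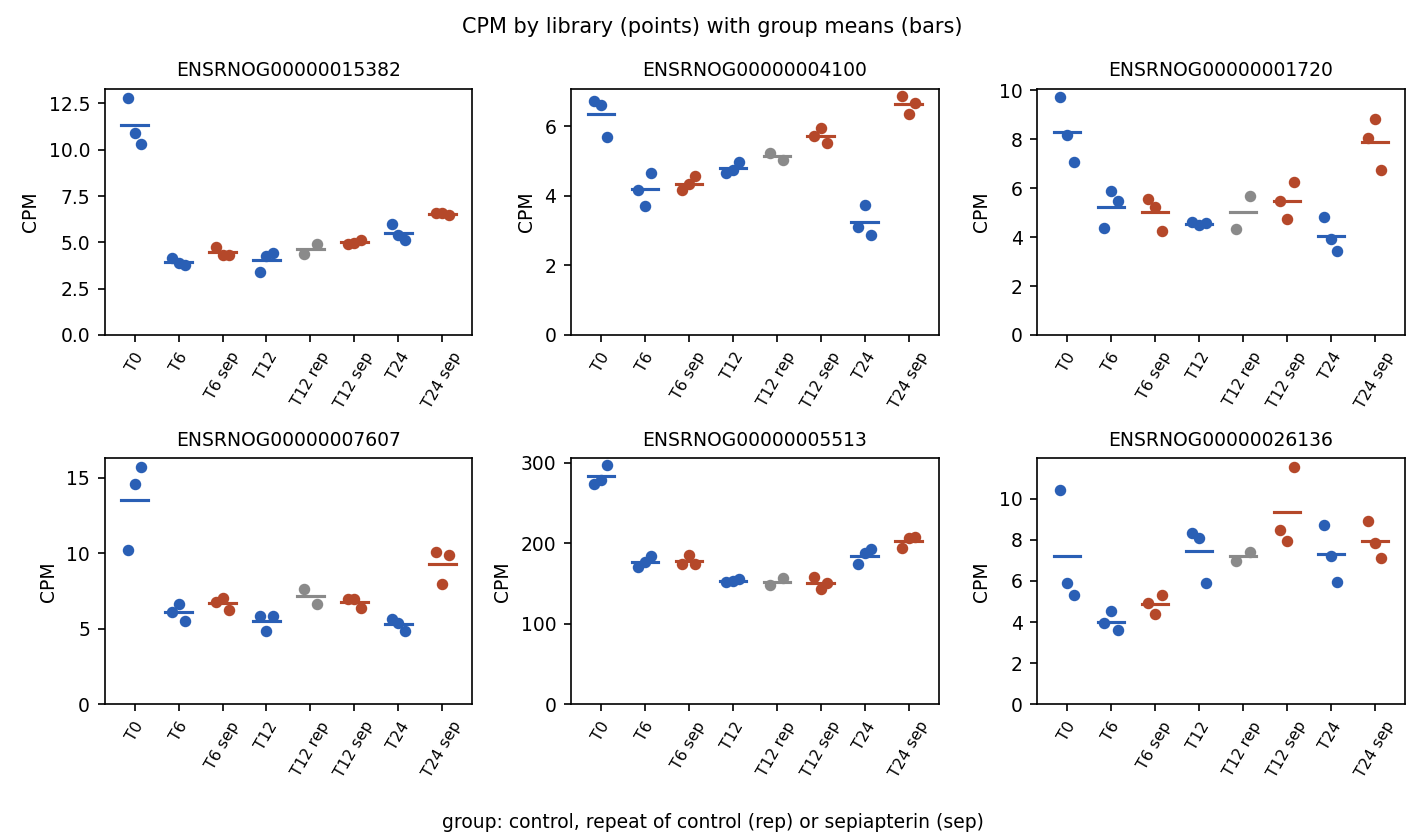
CPM in each library (points) and group means (bars) for 6 of the 54 genes, by time and treatment, with sepiapterin in red, controls in blue and repeat libraries in grey. ENSRNOG00000004100, ENSRNOG00000001720 and ENSRNOG00000007607 have every T24 sepiapterin library above every T24 control, while ENSRNOG00000005513 has all later libraries below its T0 range.

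At 12 hours 0 of the 54 genes passed the test between sepiapterin and control with edgeR, where 0.0214% of all genes did, and 0 passed with DESeq2, which gave 21 of the 54 no adjusted p. DESeq2 called 1.62% of all genes. The edgeR count was 1 without T12 control replicate 3, where 2.18% of all genes were called, and 2 with T0 control replicate 1 left out of the fit, where 1.98% were. At an unadjusted p under 0.05 the number was 9 of 54 at T12, against 15.9% of all genes, and 11 of 54 at T24, against 20.4%. These shares are near the background. Log2 fold changes of the 54 genes had standard errors with a median of 0.16 at T12 and 0.17 at T24, so differences of the size of the group medians were not detectable gene by gene.

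Small differences leaned to the higher side with sepiapterin. The median log2 fold change of the 54 genes was 0.11 at T12 and 0.13 at T24, against 0.0037 and 0.0065 over all genes tested. Values above 0 were found for 37 of the 54 genes at T12 (68.5%, against 51.2% of all genes) and for 40 at T24 (74.1%, against 51.7%). Sepiapterin libraries lay wholly above the controls for 11 of the 54 genes at T12 and 12 at T24, with 11.7% and 13.2% of all genes as background, and wholly below for 2 and 1, with 11.7% and 11.9%. The per-library medians relative to T0 were -0.51, -0.53 and -0.44 with sepiapterin at T24 and -0.70, -0.59 and -0.62 in controls, while at T12 the groups overlapped. All sepiapterin libraries lay below the lowest T0 library for 39 of the 54 genes at T12 and 33 at T24, with 17.5% and 17.9% of all genes as background. The T0 libraries chose the genes, so nothing is read from these counts or from the medians relative to T0.

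By its medians, that lean was smaller among genes that qualified without T0 control replicate 1. Among the 51 genes chosen without it, the median was 0.044 at T12 and 0.010 at T24, with 32 and 28 genes above 0, and 1 gene was called at T24. Within the 54, the 29 genes that qualified without it had medians of 0.042 and 0.054, with 15 and 20 genes above 0. The 25 that did not had medians of 0.25 and 0.17, with 22 and 20 above 0. These contrasts compare no T0 library, though the fit held them, and the part of that library in the result was not tested.

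**Figure D4:**
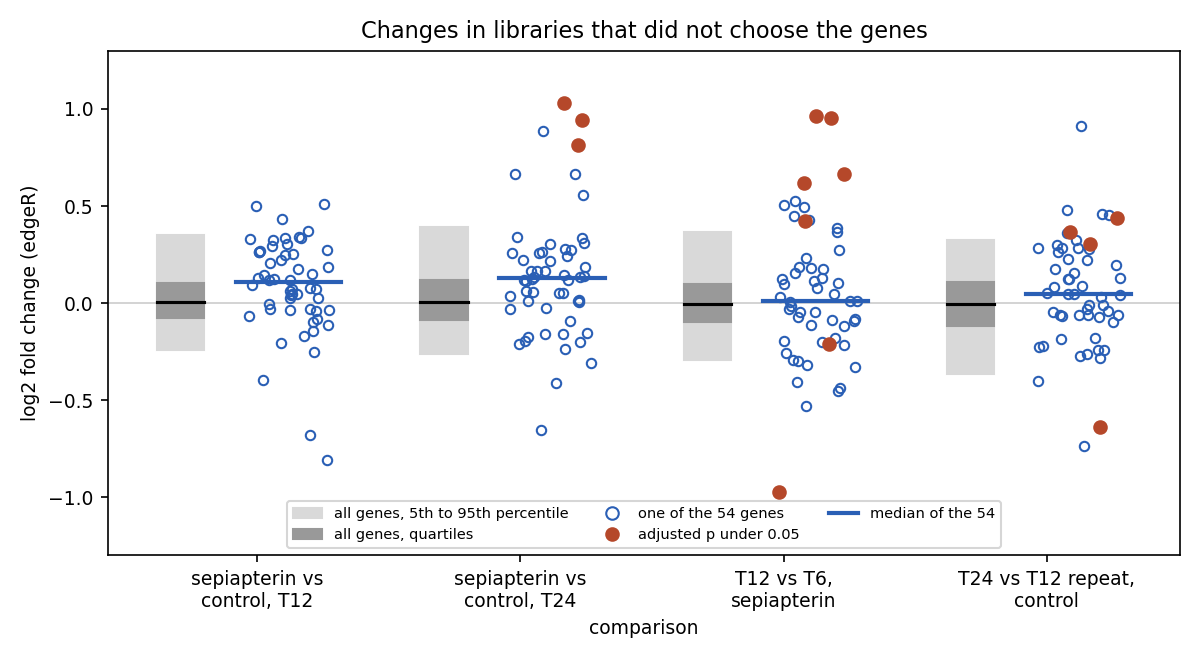
Log2 fold changes (edgeR) of the 54 genes (circles, filled for adjusted p under 0.05, with their median as a line) in 4 comparisons. The quartiles and the 5th to 95th percentile of all genes tested stand beside them (grey). The libraries compared had no part in choosing the genes. Except for T24 against the repeats, the T0 and T6 controls that chose them were in the fit and entered its spread. The medians of the 54 are 0.11, 0.13, 0.0084 and 0.048.

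A difference in the effect of sepiapterin between T24 and T12 was called for 1 of the 54 genes, with a background of 0.235% of 14035 genes. This was ENSRNOG00000004100, with log2 fold changes of 0.25 ± 0.11 at T12 and 1.03 ± 0.12 at T24 and a difference of 0.77 ± 0.17 (SE, adjusted p 0.047, 0.015 to 0.14 over the alternatives). For ENSRNOG00000001720 and ENSRNOG00000007607 the differences were 0.68 ± 0.22 and 0.52 ± 0.21 with adjusted p-values of 0.18 and 0.28. The largest difference among the 54 genes was that of ENSRNOG00000002266, at 1.14 ± 0.27, which was not called (edgeR, adjusted p 0.066). Its log2 fold changes with sepiapterin were -0.81 ± 0.19 at T12 and 0.33 ± 0.19 at T24. The call on ENSRNOG00000004100 held in 6 of 18 alternatives. The number of genes called was 0 without T12 control replicate 1 or 2, without T24 control replicate 1, 2 or 3, without T12 sepiapterin replicate 1, 2 or 3, and without T24 sepiapterin replicate 1 or 2. In those fits 0 to 25 of all genes were called. It was 2 without T12 control replicate 3 (0.981% of all genes) or T24 sepiapterin replicate 3 (4.0%), and 2 with T0 control replicate 1 left out of the fit (0.997%).

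Repeat libraries of the same T12 samples give a measure of how well such low genes are reproduced. By label the repeats are in the second library batch and the other T12 libraries in the first. Repeat and batch cannot be told apart here. Between the paired libraries the 54 genes differed by a median absolute log2 value of 0.14 in sample 10 and 0.14 in sample 11, against 0.095 and 0.091 over all genes at the CPM minimum. A difference of more than 1.5 times was seen for 2 of the 54 genes in sample 10 and 0 in sample 11, against 0.677% and 0.51% of all genes.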

How the data were processed

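RNA sequencing of 23 libraries was used. The authors deposited raw read counts per Ensembl gene, 1 table per library with 5 summary lines, which were left out (14.8 to 17.1% of tallied alignments outside genes, 23.5 to 25.0% aligned to several places, 0.224 to 0.269% ambiguous). Per the submitters' processing notes, the tools were cutadapt 1.8, STAR 2.5.2b and HTSeq 0.6.1 and the build Rnor_6.0. No source used here gives the strand setting or annotation release, so near-identical copies and genes that overlap others are uncertain.

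CPM were computed from library totals over genes. Tests used edgeR 4.0.16 in R 4.3.3: quasi-likelihood with robust spread, TMM scaling, filterByExpr (minimum count 10) and Benjamini-Hochberg adjustment over all genes tested, called below 0.05. A fit of 21 libraries in 7 groups (14 residual degrees of freedom) gave the contrasts, except T24 against the T12 repeats, fitted on 8 libraries in 3 groups (5 degrees of freedom). All 54 genes passed the filter in both fits. The fit of 21 libraries held the T0 and T6 controls that chose the genes, so they entered the spread behind its p-values. With only the compared groups fitted, 0 of the 54 genes were called for sepiapterin at T12 (0.117% of all genes) and 3 at T24 (1.47%). For T12 against T6 with sepiapterin that count was 9 (7.55%). DESeq2 1.42.0 was an alternative. The code was tested on simulated data.

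Groups follow the titles. The file headers of the libraries of samples 10 and 11 name them the other way round, which was run as an alternative. The labels do not say that replicates were separate cultures, and p-values cover the spread among these samples alone, which may be technical. Genes to name were taken as the largest T0 to T6 ratios and the smallest p-values among calls. With no symbols available, each comparison names up to 2 higher and 2 lower genes, and some were added or singled out after their values were seen: ENSRNOG00000056836, ENSRNOG00000007607 and, for their T0 values, ENSRNOG00000002434 and ENSRNOG00000005513, and ENSRNOG00000026136 for its later control levels. ENSRNOG00000002266 was likewise added to the difference of effects, where it was not called. The definition of the 54 genes and the gene lists were chosen with earlier results of these data known.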

Additional observations from a re-analysis of the deposited data

Results flagged for a closer look

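The effect of sepiapterin on ENSRNOG00000004100 differed between time points by a test of the difference itself, which was close to the threshold: it was larger at T24 than at T12 by 0.77 on the log2 scale (edgeR, adjusted p 0.047). The call was lost in 12 of 18 alternatives, where the adjusted p reached 0.14. Sepiapterin libraries had 5.72, 5.97 and 5.51 CPM at T12 and 6.87, 6.36 and 6.66 CPM at T24, while controls had 4.66, 4.74 and 4.98 CPM at T12 and 3.10, 3.74 and 2.88 CPM at T24. T12 and T24 belong to different library batches by label, and each effect was taken within its own time point. The same T24 controls entered the calls on this gene against the T12 repeats and against T24 sepiapterin, so these calls are not independent.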

How the results depend on the processing

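The number of genes meeting the definition was 223 with a ratio of 1.3, 4 with a ratio of 2, 89 with a minimum of 1 CPM, 26 with a minimum of 5 CPM and 61 with TMM-scaled CPM (54 of them shared). It ranged from 51 to 85 with a single T0 or T6 control left out, the highest without T0 control replicate 3. Without a filter on low counts 1 of the 54 genes was called at T12 (0.312% of all genes) and 7 between T24 and the T12 repeats (6.4%), where DESeq2 called 2 (5.07%, and 43 of the 54 had no adjusted p) and the grouping by file header 1. For the difference of effects between T24 and T12, DESeq2 and a fit of the compared groups alone called 0 (1.16% and 0.0658% of all genes). Among the 4 genes with a ratio of 2 or more, 1 was called for sepiapterin at T24 and 0 in each of T12 against T6 with sepiapterin, T24 against the repeats and the difference of effects. Among the 51 genes chosen without T0 control replicate 1, added after seeing the data, these counts were 1, 3, 4 and 0. With single libraries left out of the fits, counts ranged from 0 to 2 for sepiapterin at T12, 2 to 7 at T24, 0 to 11 for T12 against T6, 0 to 7 for T24 against the repeats and 0 to 2 for the difference of effects. Leaving T0 control replicate 1 out of the fit was also added after seeing the data. Where an arm was left with 1 library, that library was taken to vary like the others. Of 15 calls on single genes, 2 held in every alternative run and 0 changed direction. The median standard error of the 54 genes' log2 fold changes for sepiapterin against control was 0.16 to 0.17, which limits what single genes can show, and counting error was not separated from the spread between replicates. No paired analysis was possible because the groups compared by a test share no replicate numbers in the labels. Sample numbers 10 and 11 are shared only by T12 controls and their repeats, which were set side by side but not tested.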
